A study of Mus musculus with 12 samples.

Results

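The genes described here encode the core of transforming growth factor-β (TGF-β) signalling, namely the ligands *Tgfb1* and *Tgfb3*, the receptors *Tgfbr1* and *Tgfbr2*, the signal transducers *Smad2*, *Smad3* and *Smad4*, the inhibitor *Smad7* and the TGF-β-induced matrix gene *Tgfbi*. They were chosen by name and with earlier results of these data known, and all 9 of the 9 names were found among the 52636 genes of each count table. RNA was sequenced from neutrophils and from macrophages of C57BL/6 J mice aged 8 to 12 weeks, in 4 groups of 3 libraries and 12 libraries in all. Neutrophils were enriched from the marrow of femora and tibiae, with no culture before treatment stated. They were treated for 4 h with 1 nM calcitonin gene-related peptide (CGRP), a neuropeptide released by sensory neurons, or with saline (PBS). Macrophages here are bone marrow monocytes that were kept for 3 days in 10 ng/ml M-CSF, a growth factor that drives monocytes towards macrophages, before the same 4 h with 1 nM CGRP or PBS, and the labels call them monocyte/macrophage. All groups came from wild-type cells with no transgene stated. The 2 cell types therefore differed in culture time and medium as well as in identity. How many mice stood behind a library was not given in the sources used here, so that p-values measure only the spread between these libraries.

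TGF-β ligands are secreted in a latent form, bound to their own propeptide, and act only after release by integrins, proteases or matrix proteins. The active ligand joins the type II receptor TGFBR2 to the type I receptor TGFBR1, which phosphorylates SMAD2 and SMAD3. These enter the nucleus with SMAD4, whereas SMAD7 blocks the receptor and is itself induced by the pathway. In myeloid cells TGF-β is known for restraining inflammatory activation and for a part in resolution and repair of wounds.

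The tables held unique-molecule counts of cDNA primed at the poly-A tail, so that reads lie near the 3′ end of transcripts. Totals ranged from 2719556 to 3631989 counts in neutrophils with PBS, from 2196558 to 3270388 in neutrophils with CGRP, from 2536415 to 3477069 in macrophages with PBS and from 2002559 to 3259073 in macrophages with CGRP. Levels are given as CPM, that is counts scaled to the library total, after TMM scaling within the cell type and with the SD over 3 libraries, except that sums over marker genes are scaled over all 12 libraries. They are not compared between genes. A floor of 3 counts, divided by the library total without TMM, amounted to 0.826 CPM in the deepest and 1.498 CPM in the shallowest library, a limit that covers counting error only. The labels were checked against marker genes, of which the 10 for neutrophils summed to 193821 CPM in neutrophils with PBS and to 343 CPM in macrophages with PBS, and the 10 monocyte or macrophage markers to 680 and 11027 CPM. The neutrophil libraries also held 6129 CPM of 6 erythroid markers, led by *Hbb-bs*, 1052 CPM of 6 basophil or eosinophil markers, led by *Prg2*, and 705 CPM of 6 B cell markers, led by *Ighm*. By limma-voom 0 of the 49 markers tested in neutrophils and 0 of the 29 tested in macrophages differed between CGRP and PBS at an adjusted p under 0.05, and 5 and 6 of them had an unadjusted p under 0.05. Of all genes tested, 2.53% in neutrophils and 7.43% in macrophages had the former, and 12.8% and 19.8% the latter. Some sums over marker lists nevertheless lay apart in all 3 libraries of each treatment. Among all single genes tested, 17.8% in neutrophils and 24.1% in macrophages had groups without overlap. In macrophages the neutrophil markers, led by *S100a8*, had 301 to 394 CPM with PBS and 415 to 443 CPM with CGRP, the monocyte or macrophage markers, led by *C1qb*, 10762 to 11296 and 11427 to 13167 CPM, the 5 dendritic cell markers, led by *Cd209a*, 3.44 to 4.79 and 6.89 to 9.60 CPM, and the B cell markers, led by *Ighm*, 120 to 145 and 102 to 116 CPM. In neutrophils the 7 T or NK cell markers, led by *Nkg7*, had 116 to 132 CPM with PBS and 84.2 to 109.9 CPM with CGRP, and the B cell markers 691 to 728 and 628 to 645 CPM. The part of these cells in the differences below was not tested.

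In neutrophils, none of the members passed the test for a difference between CGRP and PBS. Of the 9 members 8 had enough counts to be tested, and 0 of 8 had an adjusted p under 0.05 or an unadjusted p under 0.05 by limma-voom, against 2.53% of the 9819 genes tested that had the former (248 genes, of which 148 were higher and 100 lower, or 150 and 64 with library totals in place of TMM) and 12.8% that had the latter. edgeR and DESeq2 also called 0 of the 8. The median log2 fold change of the 8 members was 0.06, and that of all genes tested was 0.00.

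Among the ligands, *Tgfb1*, which encodes the most widely expressed isoform, had 17.8, 20.7 and 18.5 CPM in neutrophils with PBS and 17.8, 20.8 and 24.6 CPM with CGRP. The groups overlapped, and the log2 fold change was 0.12 (95% CI −0.26 to 0.50, adjusted p = 0.857, limma-voom). *Tgfb3*, the isoform known for scar-poor repair, had 6, 1 and 5 counts with PBS and 1, 4 and 5 counts with CGRP, which left it untested in neutrophils and at or near the floor in every library.

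The receptors were measured more deeply. *Tgfbr1*, the type I receptor kinase, stood at 56.7, 58.5 and 62.0 CPM in neutrophils with PBS and at 71.3, 78.7 and 56.6 CPM with CGRP. Replicates 1 and 2 with CGRP lay above every PBS library and replicate 3 lay just below them, so that the groups overlapped (log2 fold change 0.23 ± 0.13 SE, adjusted p = 0.464, limma-voom). *Tgfbr2*, the ligand-binding type II receptor, averaged 23.6 ± 5.77 CPM with PBS and 20.2 ± 3.39 CPM with CGRP (SD, n = 3), with overlapping groups.

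Of the SMADs in neutrophils, *Smad2*, a receptor-activated SMAD, was the only member whose groups did not overlap. It had 21.2, 22.2 and 21.4 CPM with PBS and 18.2, 19.7 and 16.2 CPM with CGRP, and the difference of −0.25 ± 0.18 SE on the log2 scale did not pass the test (adjusted p = 0.629, limma-voom). Of all genes tested, 17.8% had groups without overlap and 8.83% had CGRP libraries wholly below the PBS libraries, so that 1 of 8 members is near the background. *Smad3*, its partner, averaged 12.3 ± 4.41 CPM with PBS and 12.3 ± 3.39 CPM with CGRP (SD, n = 3), and *Smad4*, the shared subunit, 19.3 ± 3.77 and 22.2 ± 3.23 CPM. *Smad7*, the feedback inhibitor, varied widely between libraries, at 6.54, 24.6 and 13.2 CPM with PBS and 10.2, 11.2 and 24.1 CPM with CGRP. Its spread within each group exceeded the difference between the group means, and the 95% CI of its log2 fold change ran from −0.72 to 0.78. *Tgfbi*, which encodes a secreted matrix protein, averaged 272 ± 11.9 and 251 ± 19.6 CPM, and its groups overlapped.

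**Figure D1:**
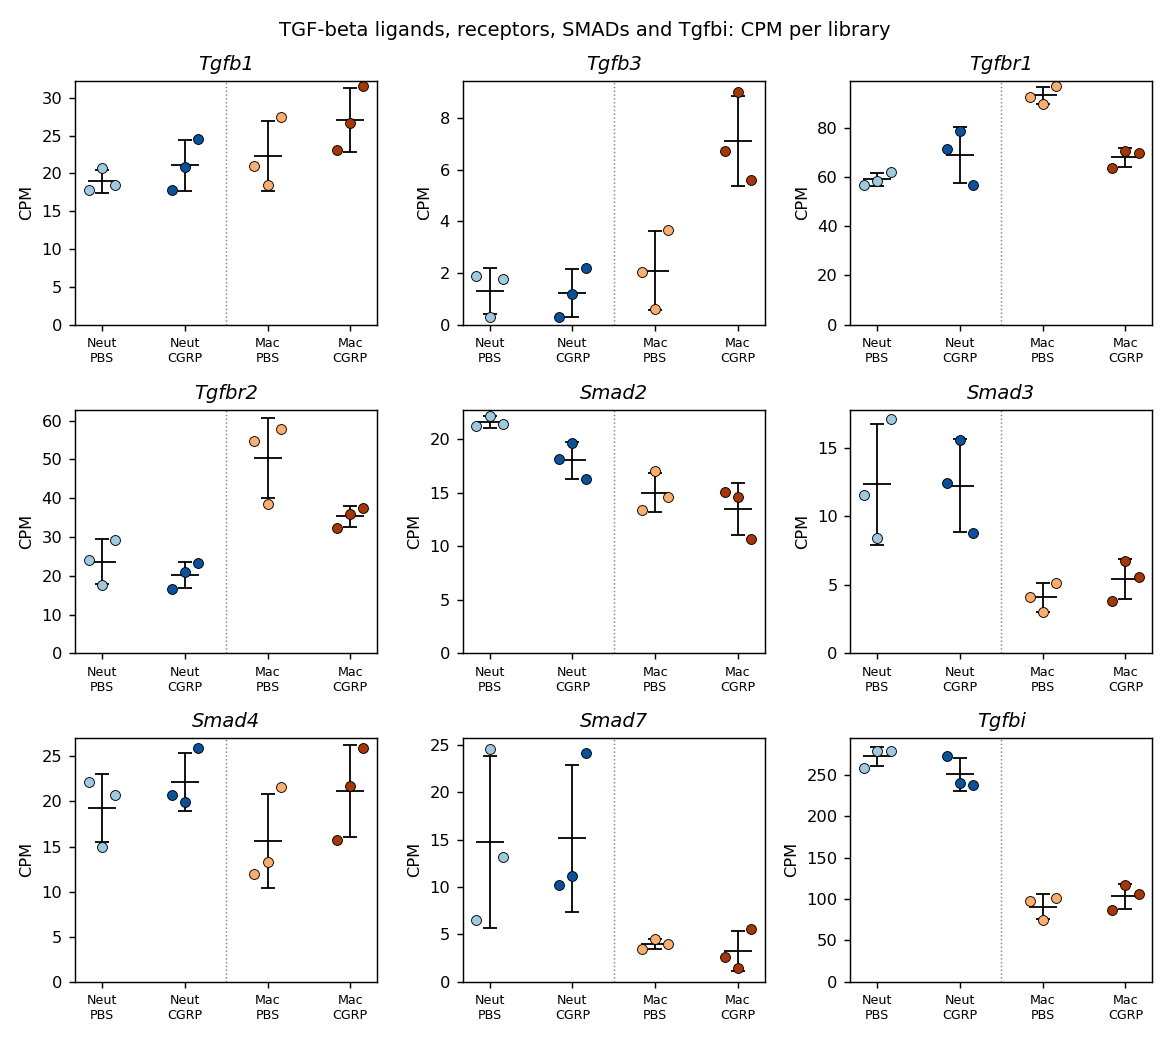
CPM (y axis, linear, from 0) of each member gene in the 12 libraries, by cell type (Neut, neutrophils; Mac, macrophages) and treatment, scaled within a cell type. Points are single libraries in the order of replicates 1 to 3, horizontal bars the mean and whiskers the SD (n = 3). In macrophages *Tgfb3* lies higher with CGRP in all 3 libraries and *Tgfbr1* and *Tgfbr2* lie lower in all 3.

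In macrophages, 1 of the 9 members passed the test. *Tgfb3* rose with CGRP by 2.02 on the log2 scale, whereas both receptor genes lay lower in all CGRP libraries without passing the threshold. All 9 members were tested in this cell type, and a call was made for 7.43% of the 9393 genes tested (698 genes), with 3.46% called higher (325) and the other 373 lower, or 245 and 405 with library totals in place of TMM. An unadjusted p under 0.05 was found for 3 of the 9 members (*Tgfb3*, *Tgfbr1* and *Tgfbr2*) and for 19.8% of all genes. Groups that did not overlap were found for 3 of the 9 members and for 24.1% of all genes tested, either direction counted. The median log2 fold change of the members was 0.19, and that of all genes tested was 0.00. As in any bulk sample, fewer cells of a kind and less RNA per cell cannot be told apart in these values.

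*Tgfb3* (ENSMUSG00000021253) lies on the minus strand of chromosome 12, at chr12:86056745-86079041 of GRCm38. It had 7, 2 and 10 counts in macrophages with PBS and 21, 24 and 11 counts with CGRP, that is 2.04, 0.606 and 3.65 CPM against 6.74, 8.997 and 5.59 CPM. Every CGRP library was above every PBS library, and the lowest PBS value, in replicate 2, was below the floor of 3 counts. The means were 2.10 ± 1.53 and 7.11 ± 1.73 CPM (SD, n = 3), and the fitted difference was 4.06-fold, or 2.02 ± 0.51 SE on the log2 scale (95% CI 0.93 to 3.11, adjusted p = 0.0239, limma-voom). The study named this gene from the same libraries, so the call is not independent evidence of its direction. The call rested on few counts: leaving out macrophage PBS replicate 1, PBS replicate 2 or CGRP replicate 2 in turn gave adjusted p values of 0.0975, 0.123 and 0.108, and thinning all libraries to the smallest gave 0.0597. The log2 fold change was between 1.38 and 2.49 over all 6 such omissions.

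The annotation places 3 other genes across from *Tgfb3* on the opposite strand, and whether the counting used strand was not given in the sources used here. Of these *Ttll5*, a tubulin polyglutamylase gene, had 9, 9 and 8 counts in macrophages with PBS and 14, 4 and 4 with CGRP. *Gm37804* had 0 counts in all 12 libraries and *Gm48008* at most 1. Whether *Tgfb3* shared reads with these genes was not tested. No 31-base sequence of the last 500 bases of any member occurred in an annotated transcript of another gene. Transcripts were searched only in their own direction and without introns, so this search cannot show sequence shared with genes on the opposite strand. Over the 6 macrophage libraries, the genes whose log2 CPM followed *Tgfb3* most closely were *Ranbp10* (Pearson r = 0.993), *Ulk1*, an autophagy kinase (r = 0.989), and *Mgat4a* (r = 0.988), the highest of 9393 genes over 6 points that share the treatment contrast and given as a description only.

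*Tgfb1* showed no such difference in macrophages, at 20.96, 18.5 and 27.4 CPM with PBS and 23.1, 26.6 and 31.5 CPM with CGRP. The groups overlapped, and the log2 fold change of 0.28 (95% CI −0.17 to 0.73) did not pass the test (adjusted p = 0.524, limma-voom).

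Both receptor genes were lower in macrophages with CGRP. *Tgfbr1* had 318, 296 and 265 counts with PBS and 198, 188 and 137 with CGRP, or 92.6, 89.7 and 96.8 CPM against 63.5, 70.5 and 69.6 CPM. Every CGRP library was below every PBS library by more than the SD of either group, yet the difference of −0.46 ± 0.14 SE on the log2 scale (95% CI −0.75 to −0.16) did not pass the threshold (adjusted p = 0.0606, limma-voom). It passed with library quality weights (0.0287) and in a single fit over all 12 libraries (0.0232), and in none of the other 14 alternatives. *Tgfbr2* had 54.7, 38.5 and 57.7 CPM with PBS and 32.4, 36.0 and 37.6 CPM with CGRP. Its groups did not overlap by a narrow margin, set by PBS replicate 2, and the difference of −0.49 ± 0.19 SE on the log2 scale did not pass (adjusted p = 0.149, limma-voom), although it did without that library (0.0306) and with library quality weights (0.0443).

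The remaining members did not pass the test in macrophages. *Smad2* averaged 14.99 ± 1.82 CPM with PBS and 13.5 ± 2.43 CPM with CGRP, *Smad3* 4.07 ± 1.04 and 5.40 ± 1.46 CPM, and *Smad4* 15.6 ± 5.20 and 21.1 ± 5.12 CPM (SD, n = 3). Their adjusted p values by limma-voom lay between 0.392 and 0.826. *Smad7* had 12, 15 and 11 counts with PBS and 8, 4 and 11 with CGRP, few enough that its 95% CI spanned −1.53 to 0.44 on the log2 scale. *Tgfbi* averaged 90.9 ± 14.6 and 103 ± 15.02 CPM, with overlapping groups.

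The difference between the CGRP effects of the cell types was tested in a fit over the 12 libraries. By limma-voom and by edgeR 0 of the 9 members passed, against 2.36% of the 10694 genes tested (252 genes, of which 129 had the more positive effect in macrophages and 123 the more negative, or 88 and 154 with library totals in place of TMM). At an unadjusted p under 0.05 the share of all genes was 13.2%, and *Tgfb3* and *Tgfbr1* were the members under it. *Tgfbr1* came closest, with a CGRP effect that was 0.67 lower on the log2 scale in macrophages than in neutrophils (SE 0.19, adjusted p = 0.0565, limma-voom). It passed in DESeq2 (0.0457), with library totals (0.0402), with at least 10 counts required in every library (0.0413), with quality weights (0.0272) and without neutrophil CGRP replicate 3 (0.0173). With CGRP the level of *Tgfbr1* was 68.9 ± 11.2 CPM in neutrophils and 67.9 ± 3.78 CPM in macrophages (SD, n = 3), each scaled within its cell type. For *Tgfb3* the difference was 2.13 ± 0.93 SE with an adjusted p of 0.309, so that the rise in macrophages was not shown to differ from the neutrophil values.

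**Figure D2:**
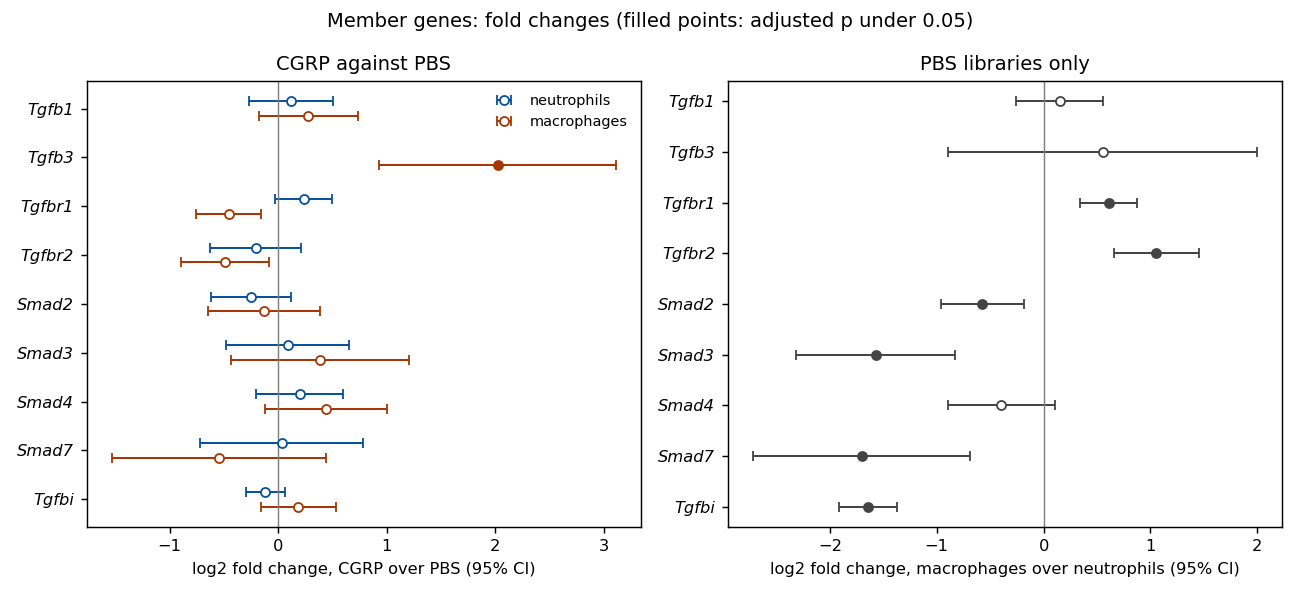
Log2 fold changes of the member genes with 95% CI (x axis) from limma-voom, for CGRP over PBS in each cell type (left, 6 libraries each) and for macrophages over neutrophils without CGRP (right). Filled points have an adjusted p under 0.05. With CGRP only *Tgfb3* in macrophages is filled, and without CGRP 6 of 9 members are, 2 to the right of 0 and 4 to the left.

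Without CGRP the members were distributed unevenly between the cell types, with both receptor genes higher in macrophages and *Smad2*, *Smad3*, *Smad7* and *Tgfbi* higher in neutrophils. In all, 6 of 9 members differed (66.7%), a share close to that of all 10694 genes tested (67.9%, with 32.5% higher and 35.4% lower in macrophages, or 3720 genes higher and 3441 lower with library totals in place of TMM). In CPM scaled over all 12 libraries, *Tgfbr1* averaged 91.7 ± 3.32 in macrophages and 60.0 ± 2.58 in neutrophils and *Tgfbr2* 49.6 ± 10.1 and 24.0 ± 5.72 (SD, n = 3), with log2 differences of 0.61 and 1.06. *Tgfbi* had the smallest adjusted p of the members, at 277 ± 12.6 CPM in neutrophils and 89.6 ± 14.1 CPM in macrophages (log2 difference −1.64 ± 0.13 SE, adjusted p = 1.53e-10, limma-voom). *Smad3* and *Smad7* were lower in macrophages by similar log2 amounts, −1.57 ± 0.36 SE and −1.70 ± 0.49 SE. *Smad2* was lower by a smaller amount (−0.57, adjusted p = 0.0102, or 0.0547 without macrophage PBS replicate 1, limma-voom). *Tgfb1*, *Tgfb3* and *Smad4* did not pass, with log2 differences of 0.15, 0.55 and −0.39, although *Smad4* did with library quality weights (adjusted p = 0.0395) and without macrophage PBS replicate 3 (0.0375, limma-voom). Cell type, culture and table cannot be told apart in this contrast. The part of the erythroid, B cell and basophil or eosinophil transcripts in the neutrophil libraries was not tested.

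Promoter sequence was examined for the members and for the pathway genes called below, since CGRP acts through a receptor coupled to cAMP, whose target promoters often hold a CRE, and SMADs bind short CAGAC boxes. RefSeq promoters (GRCm38.p6) were matched for 5 of the 9 members (*Tgfb1*, *Tgfbr1*, *Tgfbr2*, *Smad3* and *Tgfbi*) and for 14 of the 20 pathway genes called below, and the 250 bases before the start site were searched on both strands. The promoters of the 2 receptor genes, which did not pass the test with CGRP, and of the paralogues *Id2* and *Id3*, which moved in opposite directions in macrophages, are printed 5′ to 3′ with motif matches in capitals. The motifs were the full CRE (TGACGTCA), the CRE core (TGACG or CGTCA), which the full CRE contains, the SMAD box (CAGAC or GTCTG), the SMAD palindrome (GTCTAGAC) and the AP-1 site (TGANTCA).
Tgfbr1 (chr4:47352972-47353221, plus strand): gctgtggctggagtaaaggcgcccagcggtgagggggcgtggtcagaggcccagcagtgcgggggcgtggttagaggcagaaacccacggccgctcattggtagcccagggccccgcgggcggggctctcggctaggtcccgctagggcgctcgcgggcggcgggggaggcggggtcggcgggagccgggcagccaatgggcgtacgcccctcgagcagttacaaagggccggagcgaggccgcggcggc
Tgfbr2 (chr9:116175364-116175613, minus strand): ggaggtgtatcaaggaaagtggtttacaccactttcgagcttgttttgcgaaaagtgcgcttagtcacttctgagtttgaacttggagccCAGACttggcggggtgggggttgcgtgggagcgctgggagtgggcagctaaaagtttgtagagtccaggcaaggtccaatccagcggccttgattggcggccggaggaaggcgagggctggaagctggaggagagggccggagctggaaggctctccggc
Id2 (chr12:25096093-25096342, minus strand): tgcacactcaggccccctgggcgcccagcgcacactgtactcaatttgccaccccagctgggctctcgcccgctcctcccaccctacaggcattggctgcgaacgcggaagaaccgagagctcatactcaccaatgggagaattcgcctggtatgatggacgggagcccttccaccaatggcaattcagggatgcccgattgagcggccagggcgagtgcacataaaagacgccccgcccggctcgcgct
Id3 (chr4:136143572-136143821, plus strand): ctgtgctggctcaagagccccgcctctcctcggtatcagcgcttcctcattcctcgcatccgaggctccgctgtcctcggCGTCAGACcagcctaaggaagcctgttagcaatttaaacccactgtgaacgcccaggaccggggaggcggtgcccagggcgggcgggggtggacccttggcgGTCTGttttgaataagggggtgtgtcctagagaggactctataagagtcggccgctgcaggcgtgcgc

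The first of the *Tgfbr1* promoters and the *Id2* promoter held none of these motifs. *Tgfbr2* held 1 SMAD box 160 bases before the start, and *Id3* held a CRE core that overlaps a SMAD box and a second SMAD box further on. Some genes have several promoters, so that matches are counted per promoter. A SMAD box was present in 3 of the 6 promoters of the members (*Tgfbr1* at its second start, *Tgfbr2* and *Tgfbi*) and in 13 of the 22 promoters of the pathway genes, and 42.2% of 32851 promoters of that length held 1 or more. A CRE core was present in 0 of the 6 and in 4 of the 22 (1 each of *Id3*, *Junb*, *Tsc22d1* and *Vegfa*), beside 17.8% of all promoters. The full CRE (1.55% of all promoters) and the AP-1 site (6.75%) were found in none of either set, and the palindrome (0.167%) in *Runx3* alone. Matches are a description of letters and not of binding.

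The wider pathway was described by 7 lists that together hold 130 genes of the tables. The lists were chosen with earlier results of these data known. The shares called, here and for each list below, are therefore a description and not independent evidence about the pathway. In macrophages 18 of the 78 tested were called (8 higher, 10 lower), or 23.1% beside 7.43% of all genes, and their median log2 fold change was −0.01 beside 0.00. In neutrophils 6 of the 80 tested were called (4 higher, 2 lower), or 7.5% beside 2.53% of all genes. *Thbs1*, *Itgav*, *Itgb3*, *Tgm2* and *Vegfa* among them were named by the study from the same libraries, so their counts are not independent evidence of direction.

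Of the genes for latency and activation of the ligand, 3 of 11 tested were called in macrophages (1 higher, 2 lower), or 27.3% beside 7.43% of all genes, and 2 of 11 in neutrophils (1 higher, 1 lower), or 18.2% beside 2.53%. *Thbs1*, which encodes thrombospondin-1, a matrix protein able to activate latent TGF-β, had 43.1, 38.8 and 72.0 CPM in macrophages with PBS and 1372, 1789 and 1642 CPM with CGRP. In neutrophils it had 111, 102 and 116 CPM with PBS and 665, 624 and 455 CPM with CGRP, so that the groups lay far apart in both cell types and the fold changes were 32.5 and 5.26. Integrins that contain the αv subunit release the ligand from its latent complex. Of the integrin subunit genes on the list, *Itgav* and *Itgb3* passed the test, in 1 cell type each. *Itgav* fell in macrophages, from 37.8, 34.2 and 55.9 CPM to 13.5, 25.9 and 20.8 CPM (log2 fold change −1.11, adjusted p = 0.0132, limma-voom), and the interaction did not show this effect to differ from that in neutrophils. *Itgb3* fell in neutrophils, from 33.3, 33.3 and 25.6 CPM to 10.8, 7.93 and 4.83 CPM (−1.96, adjusted p = 7.51e-05, limma-voom), and was too low to test in macrophages. *Plau*, which encodes the plasminogen activator urokinase, fell in macrophages from 61, 56 and 76 counts to 4, 2 and 8 counts (−3.57 ± 0.52 SE, adjusted p = 0.000311, limma-voom).

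Platelets carry TGF-β and thrombospondin-1, and platelet markers were therefore set beside these values. The 8 platelet or megakaryocyte markers summed to 764 ± 187 CPM in macrophages with PBS and 792 ± 166 CPM with CGRP (SD, n = 3). Nearly all of this was *Pf4*, at 759 and 785 CPM, while *Gp1ba* and *Gp6* were at 0 in both groups. Summed over the 3 libraries with PBS and with CGRP, *Ppbp* had 26 and 42 counts, *Gp9* 0 and 2 and *Gp1bb* 0 and 3. *Itga2b* had 6 and 4 counts and *Treml1* 9 and 5. In neutrophils the sums of the 8 markers were 169 ± 0.696 and 172 ± 38.6 CPM, with *Pf4* at 142 and 144 CPM. *Ppbp* had 123 and 128 counts there, *Itga2b* 61 and 47, *Gp1bb* 34 and 32 and *Gp9* 21 and 26. *Treml1* had 4 and 7 counts, *Gp6* 1 and 0, and *Gp1ba* 0 in both groups. The higher sum in macrophages thus came mainly from *Pf4*, while *Ppbp*, *Itga2b*, *Gp1bb* and *Gp9* had more counts in neutrophils. The part of platelets in the values above was not tested.

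Of the other receptors and coreceptors, 3 of 10 tested were called in macrophages (1 higher, 2 lower), or 30% beside 7.43% of all genes, and 2 of these calls were lost when single libraries were left out. *Nrp1* and *Nrp2* encode neuropilins, coreceptors that bind semaphorins, VEGF and TGF-β. In macrophages *Nrp1* fell from 214 ± 35.2 to 118 ± 6.55 CPM and *Nrp2* from 143 ± 12.2 to 91.5 ± 15.3 CPM (SD, n = 3; log2 fold changes −0.85 and −0.65). The call of *Nrp2* was lost without PBS replicate 1 (adjusted p = 0.105, limma-voom), and without CGRP replicate 3 its adjusted p was 0.05003. *Acvr2b*, an activin type II receptor, rose there from 4.66, 4.55 and 4.75 CPM to 13.5, 10.5 and 10.2 CPM (1.28, adjusted p = 0.0164, limma-voom), although the adjusted p by limma-voom lay between 0.0541 and 0.0874 without PBS replicate 1, PBS replicate 2 or CGRP replicate 1. In neutrophils 0 of 8 genes of the list were called by limma-voom or edgeR (beside 2.53% of all genes), and 3 of 8 had an unadjusted p under 0.05 (beside 12.8%). *Nrp1* was among the 3, with all CGRP libraries below the PBS libraries (log2 fold change −0.51, adjusted p = 0.0817, limma-voom), and its CGRP effect was not shown to differ between the cell types (interaction adjusted p = 0.595, limma-voom). *Gdf15*, a distant member of the ligand superfamily and a stress-induced cytokine, fell in macrophages from 51, 34 and 26 counts to 13, 14 and 7 counts (−1.36, adjusted p = 0.0237, limma-voom). It was the only called gene among 3 ligands tested (33.3% beside 7.43% of all genes). Its call was lost without macrophage PBS replicate 1 or any of the CGRP libraries (adjusted p from 0.0730 to 0.126) and with thinned counts (0.0572).

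Among SMAD partners and regulators, *Runx3*, a transcription factor that binds SMADs, rose in macrophages from 7, 9 and 4 counts to 24, 26 and 24 counts (log2 fold change 2.13 ± 0.41 SE, adjusted p = 0.00373, limma-voom), the only call among 10 tested genes (10.0% beside 7.43% of all genes). In neutrophils it had 23.4, 23.7 and 28.5 CPM with PBS and 21.02, 18.8 and 21.1 CPM with CGRP and did not pass the test. *Wwp1*, a ubiquitin ligase that acts with SMAD7 on the type I receptor, fell in macrophages from 392 ± 34.0 to 235 ± 38.5 CPM and was the only call among 16 negative regulators (6.25% beside 7.43% of all genes, a share near the background). Of the SMAD-independent branch *Map2k3*, a kinase upstream of p38, rose in neutrophils from 165 ± 6.80 to 218 ± 8.47 CPM (0.40, adjusted p = 0.0115, or 0.108 without PBS replicate 1 and 0.0827 in the single fit over 12 libraries, limma-voom), and 0 of its 10 tested genes were called in macrophages by limma-voom or edgeR, nor had any an unadjusted p under 0.05 (beside 19.8% of all genes). In neutrophils *Map2k3* was the only call among 10 (10.0% beside 2.53% of all genes), and 3 of the 10 had an unadjusted p under 0.05 (beside 12.8%). In macrophages the log2 fold change of *Map2k3* was 0.22. Its CGRP effect was not shown to differ between the cell types (interaction adjusted p = 0.741, limma-voom).

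**Figure D3:**
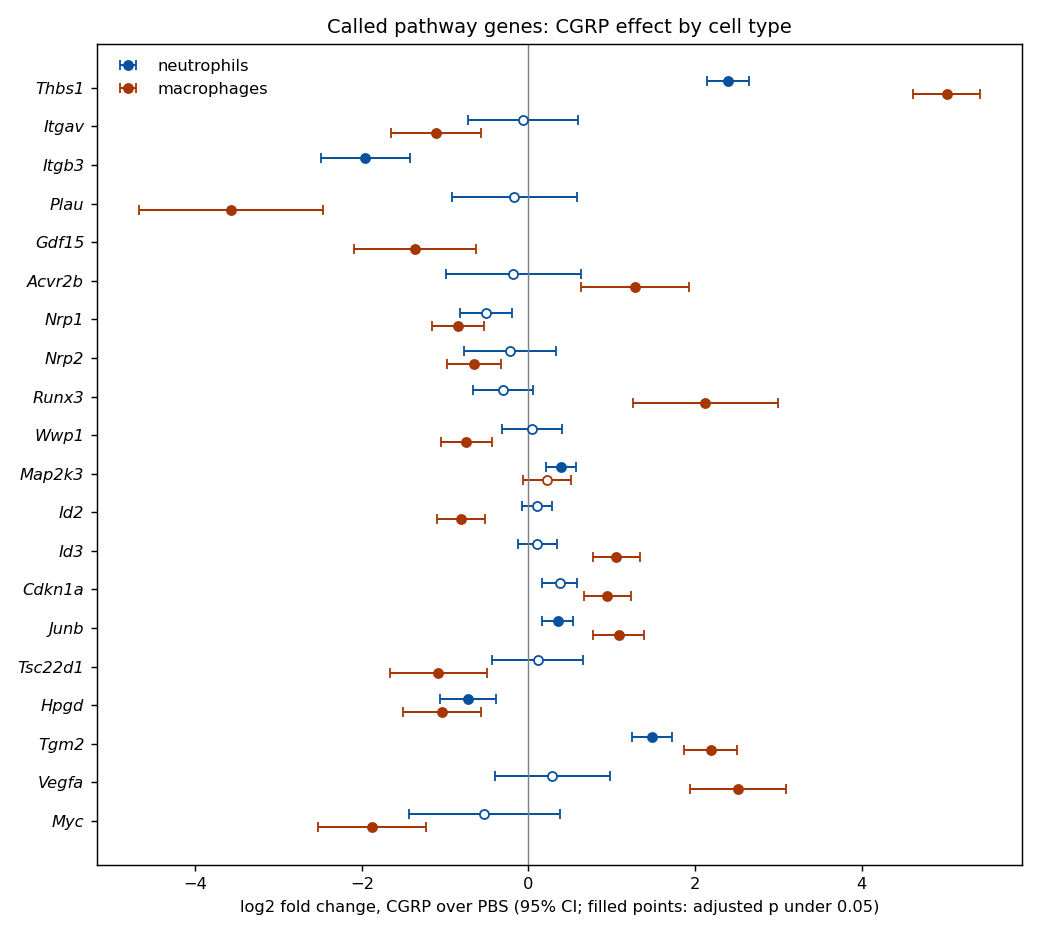
Log2 fold change of CGRP over PBS with 95% CI (x axis) for the 20 pathway genes called in either cell type, by limma-voom, ordered by list. Filled points have an adjusted p under 0.05 and a gene with too few counts in a cell type has no point. *Thbs1*, *Junb*, *Hpgd* and *Tgm2* are filled in both cell types, each with the same sign, and the neutrophil calls of *Junb* and *Hpgd* were lost when some libraries were left out.

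Genes known to respond to TGF-β were called in both directions. In macrophages 9 of the 18 tested were called (5 higher, 4 lower), or 50.0% beside 7.43% of all genes, and in neutrophils 3 of 21 (2 higher, 1 lower), or 14.3% beside 2.53%. The list holds genes that TGF-β is known to raise and genes, such as *Myc*, that it is known to lower, and many of them also answer to other signals. *Tgm2*, a protein-crosslinking transglutaminase, rose in both cell types, from 74.8, 78.2 and 89.2 CPM to 306, 427 and 378 CPM in macrophages and from 55.4, 58.2 and 45.2 CPM to 159, 145 and 140 CPM in neutrophils. *Vegfa*, an angiogenic growth factor, rose in macrophages from 8.15, 4.85 and 11.7 CPM to 48.1, 39.7 and 44.7 CPM, a 5.72-fold difference. The cell cycle inhibitor gene *Cdkn1a* rose in macrophages from 169 ± 18.7 to 325 ± 24.0 CPM (SD, n = 3), and in neutrophils its log2 fold change of 0.38 had an adjusted p of 0.0502 by limma-voom. *Junb*, an AP-1 subunit, rose by 1.08 on the log2 scale in macrophages and by 0.35 in neutrophils, where the call (adjusted p = 0.0390, limma-voom) was lost without PBS replicate 1 or 2 or CGRP replicate 2 or 3 (adjusted p from 0.109 to 0.258), in DESeq2 (0.0578), with library totals (0.0528), with thinned counts (0.0585) and in the single fit over 12 libraries (0.273).

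The inhibitors of basic helix-loop-helix factors *Id2* and *Id3* moved in opposite directions in macrophages. *Id2* fell from 151, 140 and 144 CPM to 79.6, 91.1 and 77.7 CPM and *Id3* rose from 69.3, 70.3 and 69.8 CPM to 143, 145 and 147 CPM, with no overlap of groups for either (log2 fold changes −0.81 ± 0.14 and 1.06 ± 0.13 SE). In neutrophils their log2 fold changes were 0.10 and 0.11 and did not pass the test, although the CGRP libraries lay above the PBS libraries for *Id2* (172 to 182 CPM against 164 to 169 CPM). *Myc*, a growth regulator, fell in macrophages from 88, 63 and 46 counts to 15, 16 and 11 counts (−1.88 ± 0.31 SE, adjusted p = 0.000948, limma-voom). *Hpgd*, which encodes the enzyme that inactivates prostaglandin E, fell in both cell types, by 1.04 on the log2 scale in macrophages and by 0.72 in neutrophils. Its call was lost in macrophages without PBS replicate 1 (adjusted p = 0.0573, limma-voom) and in neutrophils without PBS replicate 1 or 2 or CGRP replicate 2 (from 0.0707 to 0.126). *Tsc22d1*, a TGF-β-stimulated transcriptional regulator, fell in macrophages by 1.08 on the log2 scale (adjusted p = 0.0239, or 0.0519 without PBS replicate 3 and 0.174 without CGRP replicate 2, limma-voom).

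**Figure D4:**
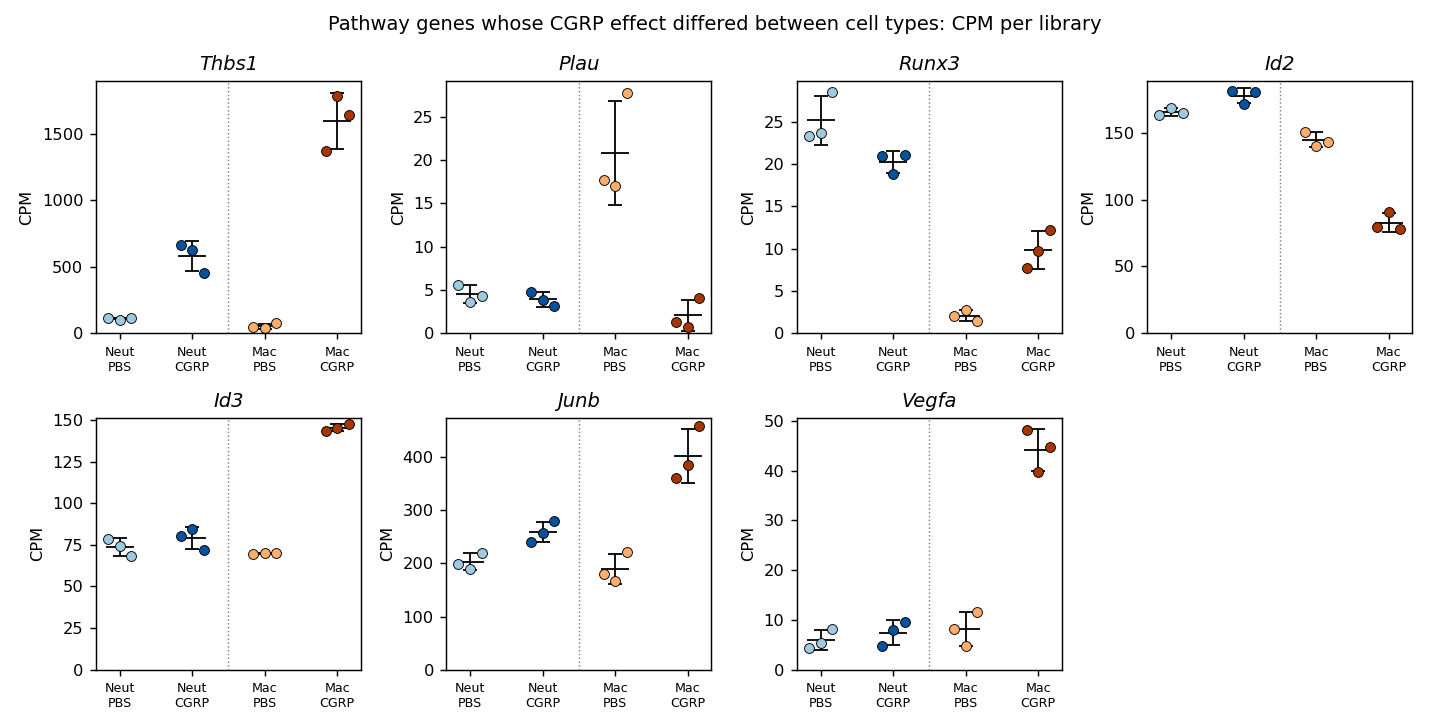
CPM (y axis, linear, from 0) of the 7 pathway genes whose CGRP effect differed between the cell types at an adjusted p under 0.05 (limma-voom interaction), by library. Points are libraries in the order of replicates 1 to 3, horizontal bars the mean and whiskers the SD (n = 3). *Id2* falls and *Id3* rises in macrophages, and in neutrophils neither passed the test.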

How the data were processed

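The authors sequenced poly-A-primed libraries with a 10-base unique molecular identifier and deposited raw counts per gene, in a table for each cell type. Per the labels and the study's methods the nfCore/RNAseq pipeline removed PCR copies, STAR aligned to GRCm38 and featureCounts counted. Annotation release and strand setting were not given in the sources used here. Positions came from GENCODE M21, in which 52489 of 52636 genes were found.

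Genes were filtered by filterByExpr (edgeR), a step the study's methods do not name, and then, as in those methods, scaled by TMM and compared with limma-voom (two-sided, Benjamini–Hochberg adjustment over all genes tested, threshold 0.05) within each cell type. The interaction and the contrast of PBS libraries used a single fit over 12 libraries. Counts of calls, the members and the called pathway genes were recomputed, where the counts allowed, with DESeq2, with the quasi-likelihood test of edgeR, with other scalings and filters, quality weights, a replicate block, thinned counts and each library left out. The steps were tested on simulated data. No library was identical to another.

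Members and gene lists were chosen with earlier results of these data known. All members are named, of the lists only called genes (up to 8 per list, and *Tsc22d1* beyond it, chosen after its value was seen). Software was R 4.3.3, limma 3.58.1, edgeR 4.0.16, DESeq2 1.42.0 and Python 3.11.15.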

Additional observations from a re-analysis of the deposited data

Results flagged for a closer look

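In 7 of the 88 pathway genes tested (7.95%, beside 2.36% of all genes), and in none of the 9 members, the CGRP effect differed between macrophages and neutrophils by the interaction term of limma-voom over the 12 libraries. On the log2 scale the macrophage effect minus the neutrophil effect was 2.64 for *Thbs1* (adjusted p = 4.84e-07), 2.44 for *Runx3* (0.00146) and 2.24 for *Vegfa* (0.00532), each more positive in macrophages. It was 0.96 for *Id3* (0.00133) and 0.74 for *Junb* (0.0168). The effect was more negative in macrophages for *Plau*, at −3.39 (0.00304), and for *Id2*, at −0.90 (0.00120). *Junb* did not pass without any 1 of neutrophil PBS replicate 3, neutrophil CGRP replicate 1 or 2, macrophage PBS replicate 1 or macrophage CGRP replicate 3 (adjusted p from 0.0556 to 0.0802), nor with library totals in place of TMM (0.123). The lists behind these genes were chosen with earlier results known, and *Thbs1* and *Vegfa* were named by the study.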

How the results depend on the processing

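The call of *Tgfb3* in macrophages held in 8 of the 9 alternatives that kept the gene without leaving out a library, and it could not be tested with at least 10 counts in every library. Members called in macrophages numbered 0 under that filter and under thinning, 3 with quality weights and 2 in the single fit over 12 libraries, and 0 to 1 when a library was left out. All genes called there numbered 1406 with quality weights and 1050 in the single fit, and 347 to 765 when a library was left out, with the fewest without PBS replicate 1 (347), CGRP replicate 2 (348) or CGRP replicate 3 (439). In neutrophils the single fit called 137 genes and leaving out a library 138 to 234 (138 without PBS replicate 1 or 2 and 153 without CGRP replicate 2), with 3 to 7 pathway genes. In the interaction, 1 member, *Tgfbr1*, was called by DESeq2, with library totals, with the 10-count filter, with quality weights and without neutrophil CGRP replicate 3 (range 0 to 1), quality weights called 520 genes and 11 pathway genes, and leaving out a library gave 149 to 328 genes. Library totals shifted the median interaction of all genes by −0.12, and *Tgfbr1* from −0.67 to −0.79 with it.

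Signs changed in 10 values of members and pathway genes, none of which passed the test. In neutrophils the log2 fold change of *Smad7* was 0.03 but −0.0311 by edgeR, −0.0108 with quality weights and −0.0410 with the replicate block, and it ranged from −0.47 (without PBS replicate 1) to 0.53 when a library was left out (−0.28 without CGRP replicate 3). *Smad3* (0.09) was −0.0236 after thinning and ranged from −0.17 (without PBS replicate 2) to 0.33 (−0.11 without CGRP replicate 2), and *Plau* (−0.17) from −0.33 to 0.00876 (without PBS replicate 1). The resting difference of *Tgfb3* (0.55) ranged from −0.19 (without neutrophil PBS replicate 2) to 1.20. The causes were not tested.

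Replicate numbers were shared by the groups, but deviations of libraries with the same number correlated at only −0.01 to 0.14 in neutrophils and −0.18 to 0.27 in macrophages, so the numbers were not taken as pairs. With the number as a block, the *Tgfb3* difference in macrophages was 1.80 on the log2 scale (adjusted p = 0.00626, limma-voom) and 0 members of neutrophils were called. At these depths genes with few counts, such as *Tgfb3* in neutrophils (1 to 6 per library) and *Smad7* in macrophages (4 to 15), could show only wide differences.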
